A study of Mus musculus with 7 samples.

Results

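Klotho, vitamin D and calcium handling in the kidney were followed here through 10 genes: Kl, Fgfr1, Vdr, Cyp27b1, Cyp24a1, Trpv5, Calb1, S100g, Slc8a1 and Casr. They were chosen by symbol, by a rule that used no measured value, though earlier results of these data were known. Each matched 1 row among the 17537 genes with values in mouse kidney. All 10 were also among the 13976 genes tested, those that reached 1 CPM (a gene's reads relative to the normalized size of its library) in 2 or more libraries. RNA with a poly(A) tail was sequenced from renal tissue of C57BL/6 mice (male, per the labels). The 3 groups were nondiabetic controls (C, replicates 2, 8 and 9), which per the methods received sodium citrate only, untreated diabetic animals, named DM-22 (replicates 1 and 2), and diabetic animals under a glucose-lowering drug, named DM+SGLT2i (replicates 1 and 2). Hyperglycemia had been induced in both diabetic groups from an age of 8 to 10 weeks with streptozotocin (STZ), a toxin of the insulin-producing beta cells, at 60 mg/kg on 5 days. DM-22 mice stayed hyperglycemic to week 22, and DM+SGLT2i mice received dapagliflozin, an inhibitor of the sodium-glucose cotransporter SGLT2 of the proximal tubule, at 25 mg/kg for the last 6 weeks, from week 16. The study asked which kidney changes remain once glucose has been lowered, which here sets DM-22 and DM+SGLT2i against C and against each other. No nondiabetic group under the drug was analysed here, and the labels name each library as a sample of its own without saying more of its source, so that p-values measure only the spread between these samples.

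Klotho, the product of Kl, is a membrane protein of the distal tubule, and in smaller amount of the proximal tubule, that joins FGF receptors (Fgfr1 first among them) to form the receptor of FGF23, the phosphate-regulating hormone made in bone. In the kidney this signal lowers Cyp27b1, which makes active vitamin D, and raises Cyp24a1, which breaks it down; active vitamin D acts on its receptor Vdr, which itself raises Cyp24a1. In the distal convoluted and connecting tubule calcium enters through the channel Trpv5, crosses the cell bound to the calbindins encoded by Calb1 and S100g, and leaves on the blood side through the exchanger Slc8a1, while Casr, the calcium-sensing receptor, acts mainly in the thick ascending limb.

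The vitamin D receptor, paired with a retinoid X receptor, binds best to direct repeats of a hexamer spaced by 3 bases. The RefSeq promoter windows (GRCm38.p6, 250 bases before to 50 after the transcript start) of 7 members were therefore searched, on both strands, for the hexamer AGGTCA, for its variant AGTTCA, for the further variants GGGTCA or else GGTTCA, and for direct repeats of any of these hexamers spaced by 3 bases; a hexamer inside a repeat would be counted in both searches. Stretches are shown for genes on both sides of the vitamin D signal: Kl (chr5:150952487-150952546, plus strand), Vdr (chr15:97908355-97908414, minus strand), S100g (chrX:162964600-162964849, minus strand), Trpv5 (chr6:41680770-41680973, minus strand) and Slc8a1 (chr17:81738388-81738637, minus strand). They run 5′ to 3′ on the strand of the gene, end before the annotated transcript start, and carry hexamer matches in capitals. The Vdr stretch lies within the bounds of the annotated gene but in no annotated exon.
Kl: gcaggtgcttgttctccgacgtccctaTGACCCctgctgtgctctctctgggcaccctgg
Vdr: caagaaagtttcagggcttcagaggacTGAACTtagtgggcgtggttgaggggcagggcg
S100g: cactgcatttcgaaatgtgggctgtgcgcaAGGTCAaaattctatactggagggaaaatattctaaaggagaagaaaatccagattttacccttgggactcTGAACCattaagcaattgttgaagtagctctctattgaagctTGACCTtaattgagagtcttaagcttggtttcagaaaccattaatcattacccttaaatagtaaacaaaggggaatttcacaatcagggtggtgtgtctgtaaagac
Trpv5: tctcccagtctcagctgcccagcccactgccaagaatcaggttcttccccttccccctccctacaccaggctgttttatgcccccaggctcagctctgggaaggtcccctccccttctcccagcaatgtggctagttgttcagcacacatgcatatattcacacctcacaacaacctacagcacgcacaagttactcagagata
Slc8a1: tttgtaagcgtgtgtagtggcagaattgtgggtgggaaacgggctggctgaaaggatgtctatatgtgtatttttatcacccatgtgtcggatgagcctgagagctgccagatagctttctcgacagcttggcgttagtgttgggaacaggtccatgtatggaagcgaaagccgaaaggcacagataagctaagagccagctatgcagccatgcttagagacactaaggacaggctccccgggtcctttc

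The window of S100g held 3 hexamers, at positions -220 to -215 (AGGTCA on the gene's strand), -149 to -144 (GGTTCA on the other strand) and -107 to -102 (AGGTCA on the other strand), counted from -1 for the last base before the start. Kl held 1 at -93 to -88 (GGGTCA on the other strand), Vdr held 1 at -91 to -86 (AGTTCA on the other strand), and Cyp27b1 held 1 after the start, at 37 to 42. Trpv5, Slc8a1 and Casr held no match. A hexamer was thus present in 4 of 7 member windows, against 43.7% of all 32851 windows of 300 bases. The repeat spaced by 3 was found in 0 of the 7 and in 13 of all windows (0.0396%). These matches are letters in a window and say nothing about binding, and Cyp24a1, Calb1 and Fgfr1 were not searched.

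Library depth, as reads on the listed genes, ran from 46456125 to 56541594, and the member with the fewest reads in any library was Cyp27b1, with 187. One control stood apart from the other two. In C replicate 2, the 6 injured-tubule markers (Havcr1, Lcn2, Krt20, Vcam1, Spp1 and Clu) summed to 6236 CPM, against 761 and 931 CPM in the other controls, 1824 to 2083 CPM in DM-22 and 2849.6 to 3093 CPM in DM+SGLT2i. Spp1 and Clu made up most of each sum, so that r values with this sum rest mostly on them. In DM-22 replicate 2 they stood at 1172 and 635 CPM. Havcr1 (2.17 CPM) and Lcn2 (2.13 CPM) were near C replicates 8 and 9 there (Havcr1 1.98 and 1.84 CPM, Lcn2 0.926 and 0.983 CPM). Lcn2 stood at 52.7 CPM in DM-22 replicate 1. The 10 proximal tubule markers summed to 9842 CPM there, against 22396 and 24937 CPM in C replicates 9 and 8. They summed to 11414 and 22492 CPM in DM-22 replicates 1 and 2, and to 15637 and 16149 CPM in DM+SGLT2i. Cdkn1a, the gene of the cell cycle inhibitor p21 on which the study turns, stood at 72.7 CPM in C replicate 2 and at 4.63 and 5.36 CPM in the other controls, against 52.6 to 123 CPM in the diabetic libraries. The level in C replicate 2 thus lay within the range of the diabetic libraries, and whether the label of this library is right could not be checked here, so that every mean and difference taken against C rests on that label. The library labelled C replicate 2 was kept, and the members' differences from C are also given without it. DM-22 replicate 1 also stood out: its thick ascending limb markers summed to 13785 CPM, against 3592 to 7505 CPM in the other 6 libraries. In DM+SGLT2i replicate 1, 4 adipose markers summed to 1003 CPM, against 33.9 to 79.1 CPM elsewhere. Podocyte markers summed to 299.8 to 771 CPM, with both ends in DM-22. Of the urothelium genes, Upk1a stood at 37.8 CPM in DM+SGLT2i replicate 1, 20.7 CPM in C replicate 2 and 10.3 CPM in DM-22 replicate 1, against 0.879 to 2.31 CPM in the other libraries. Upk1b, Upk2, Upk3a and Krt5 were likewise highest in DM+SGLT2i replicate 1 and next in C replicate 2. Slc14a2, the inner medulla gene of the same list, stood at 267 CPM in DM-22 replicate 1 and 2.84 CPM in DM-22 replicate 2. It stood at 14.8 to 88.5 CPM in the other libraries. Aqp1, also in that list but abundant in every library (887 to 2121 CPM), was likewise highest in DM-22 replicate 1 and lowest in DM-22 replicate 2. The part of urothelium or medulla in the members' levels was not tested. The 8 distal convoluted tubule markers, of the segment where the calcium genes act, had sums of 2075 to 2467 CPM in C, 1915 and 3599.7 CPM in DM-22 and 2837 and 2916 CPM in DM+SGLT2i.

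Divided by exonic length, the calbindin gene S100g was the most abundant member, with a mean of 899 CPM per kilobase over the 7 libraries, rank 29 of all 17537 genes. Calb1 (132 CPM per kilobase), Kl (104), Vdr (55.4) and Cyp24a1 (37.2) followed, and Casr (14.0), Trpv5 (10.4), Fgfr1 (6.18), Slc8a1 (3.99) and Cyp27b1 (3.66) were lowest. The length takes in the exons of all annotated transcripts, from 480 bases for S100g to 18807 for Slc8a1. Which of these exons the kidney uses was not tested, and this order depends on it. Of neighbours in this order, S100g exceeded Calb1 and Kl exceeded Vdr in 7 of 7 libraries, by a mean log2 ratio per kilobase of 2.84 ± 0.49 and 0.91 ± 0.32 (SD, n = 7). Calb1 and Kl changed places between libraries (Calb1 higher in 5 of 7, log2 ratio 0.16 ± 0.74), as did Slc8a1 and Cyp27b1 (4 of 7, 0.097 ± 0.44) and Trpv5 and Fgfr1 (4 of 7, 0.56 ± 0.91). Casr and Trpv5 (5 of 7, 0.58 ± 0.70), Fgfr1 and Slc8a1 (5 of 7, 0.86 ± 0.98) and Vdr and Cyp24a1 (6 of 7, 0.85 ± 0.94) also differed by less than the SD, and so did Cyp24a1 and Casr (6 of 7, 1.14 ± 1.42). The channel gene Trpv5 was thus present at a much lower level per length than the calbindins that bind the calcium it admits. The enzyme gene Cyp27b1 had the lowest mean of the 10, in an order with Slc8a1 that is not settled.

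**Figure D1:**
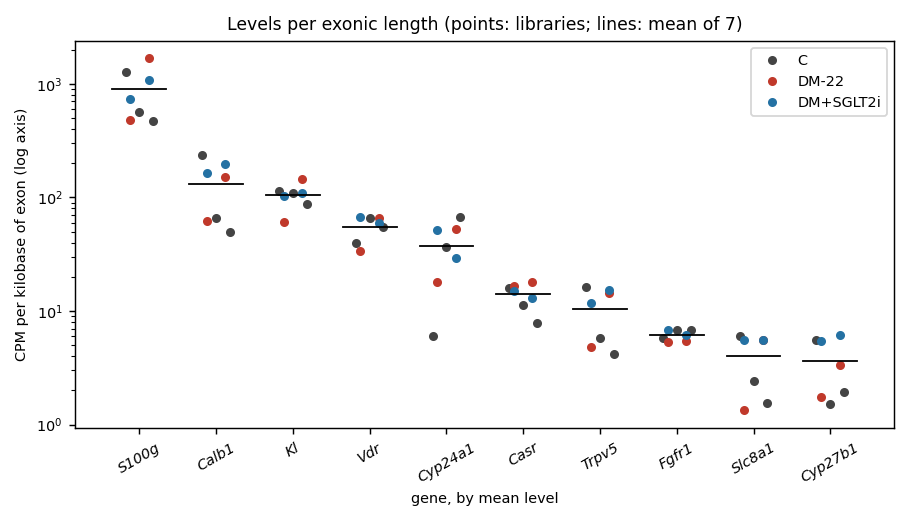
Levels of the 10 genes in CPM per kilobase of exon on a log axis, 1 point per library coloured by group, with a line at the mean of the 7 libraries. By mean level S100g lies highest and Cyp27b1 lowest, and the points of Cyp24a1 spread furthest.

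Klotho and its receptor partner Fgfr1 differed in how far they varied. Kl (ENSMUSG00000058488, chr5:150952607-150993817, plus strand, GRCm38) stood at 1073, 1026 and 819 CPM in C replicates 2, 8 and 9, at 562 and 1346 CPM in DM-22 replicates 1 and 2, and at 958 and 1026 CPM in DM+SGLT2i replicates 1 and 2. The DM-22 pair held both the lowest and the highest level of all 7 libraries, with every control and every drug-treated library in between. The log2 fold change of Kl was -0.15 in DM-22 against C (95% interval -1.06 to 0.76), 0.038 in DM+SGLT2i against C (-0.87 to 0.95) and 0.19 in DM+SGLT2i against DM-22 (-0.81 to 1.19). Without C replicate 2 it was -0.076 and 0.11 against C. With intervals this wide, it cannot be said whether Kl differed between the groups. Within the 2 libraries of DM-22, Kl went with Slc12a3, the sodium chloride cotransporter of the distal convoluted tubule. Slc12a3 stood there at 340.2 CPM in replicate 1 and 1523 CPM in replicate 2. This did not hold in the other groups. In DM+SGLT2i, Slc12a3 stood at 1139 CPM in replicate 1 and 988 CPM in replicate 2, the opposite order to Kl. Of the controls, C replicate 2 had the lowest Slc12a3 (727 CPM) and the highest Kl. Over the 7 libraries Kl had a Pearson r of 0.85 with the distal convoluted tubule sum, 0.95 with the podocyte sum and -0.70 with the thick ascending limb sum, given as descriptions of 7 libraries. In such bulk samples fewer cells of a type and less RNA per cell cannot be told apart, and the part of tissue make-up in the level of Kl was not tested.

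Fgfr1 (ENSMUSG00000031565, chr8:25513654-25575718, plus strand) was the steadiest member, with 57.0, 67.8 and 67.2 CPM in C, 52.9 and 53.8 CPM in DM-22 and 67.8 and 60.9 CPM in DM+SGLT2i. Both DM-22 values lay below every other library, and the drug-treated values lay within the range of the controls. The log2 fold change was -0.26 ± 0.14 (SE) in DM-22 against C, with an adjusted p of 0.804 in limma. With C replicate 2 left out it was -0.34, with an unadjusted limma p of 0.0248 and an adjusted p of 0.148. Between DM+SGLT2i and DM-22 the log2 fold change was 0.27 (95% interval -0.090 to 0.62), and in DM+SGLT2i against C it was 0.0097, or -0.071 without C replicate 2.

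**Figure D2:**
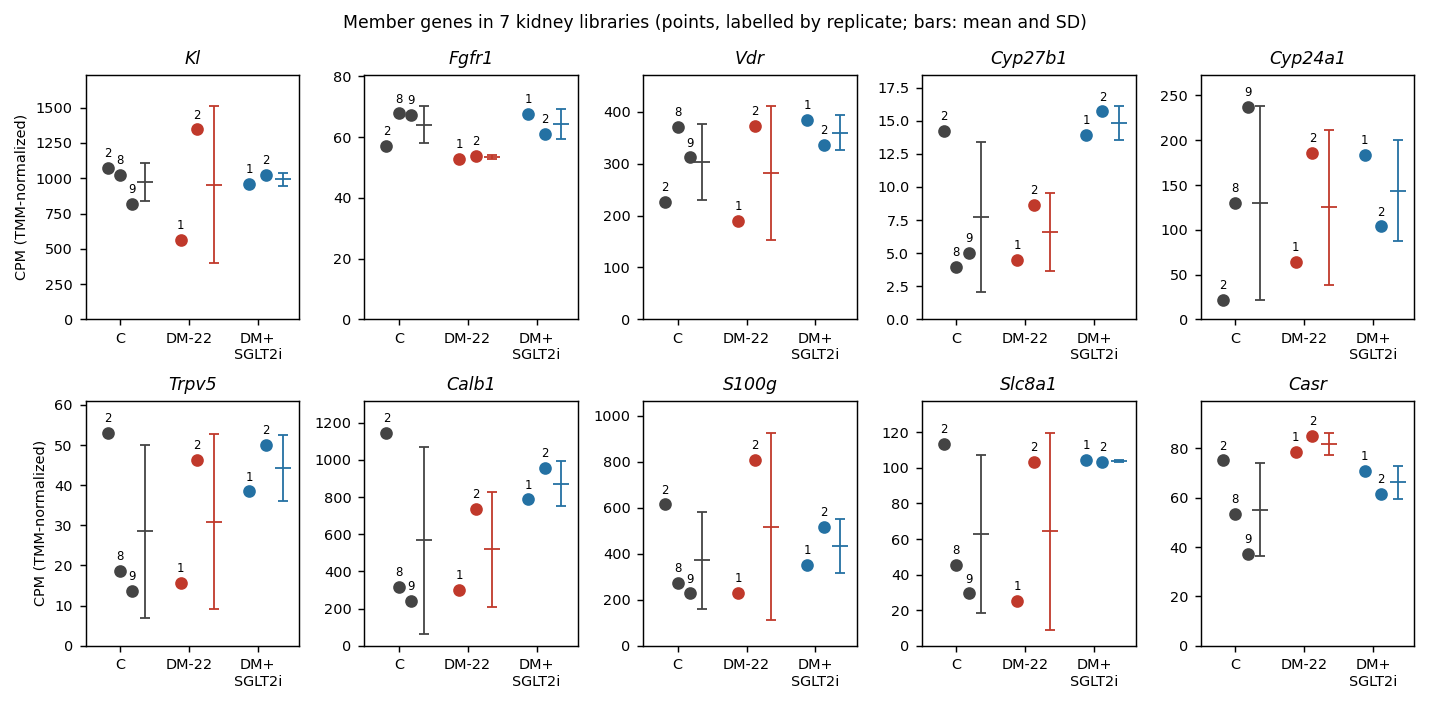
CPM of each gene in the 7 libraries, from 0 on each vertical axis, with points labelled by replicate number and bars for the group mean and SD (n = 3 in C, 2 in DM-22 and 2 in DM+SGLT2i). In Trpv5, Calb1, Slc8a1 and Cyp27b1, C replicate 2 lies far above the other controls, and DM-22 replicate 1 lies near them.

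Among the vitamin D genes, the receptor varied 2.02-fold over the libraries, while Cyp27b1 was high and Cyp24a1 lowest in C replicate 2. Vdr (ENSMUSG00000022479, chr15:97854425-97910630, minus strand) stood at 226, 371 and 312 CPM in C, 189.8 and 372 CPM in DM-22 and 383 and 336 CPM in DM+SGLT2i. Its lowest values were those of DM-22 replicate 1 and C replicate 2, and the remaining 5 libraries lay within 312 to 383 CPM. The log2 fold change was -0.16 in DM-22 against C (95% interval -0.96 to 0.64), 0.27 in DM+SGLT2i against C (-0.53 to 1.07) and 0.43 in DM+SGLT2i against DM-22 (-0.44 to 1.31). Leaving out C replicate 2 gave -0.35 and 0.077 against C, so that the direction stayed and the sizes moved. The sum of proximal tubule markers went with Vdr over the 7 libraries (r = 0.79), and its part in the level of Vdr was not tested.

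Cyp27b1 (ENSMUSG00000006724, chr10:127048250-127053006, plus strand), the 1-alpha-hydroxylase that makes active vitamin D, stood at 14.2 CPM in C replicate 2 but at 3.94 and 5.00 CPM in C replicates 8 and 9. It reached 4.52 and 8.67 CPM in DM-22 and 13.9 and 15.7 CPM in DM+SGLT2i. The drug-treated libraries did not overlap with DM-22, and they overlapped with the controls through C replicate 2. Cyp27b1 had a log2 fold change of 1.10 ± 0.54 (SE) in DM+SGLT2i against C (limma, unadjusted p = 0.0808, adjusted p = 0.9997) and 1.17 ± 0.59 against DM-22 (unadjusted p = 0.0885, adjusted p = 0.881). In DM-22 against C it was -0.068 (95% interval -1.35 to 1.21), and 0.46 without C replicate 2, so that its sign changes with that library. Without C replicate 2 the value for DM+SGLT2i against C became 1.63 (95% interval 0.87 to 2.39), with an unadjusted limma p of 0.00203 and an adjusted p of 0.105. Of the 10 genes Cyp27b1 had the largest log2 fold change in DM+SGLT2i against DM-22 and, with all controls, against C, and Calb1 was slightly above it without C replicate 2. The injured-tubule sum went with Cyp27b1 over the libraries (r = 0.81, n = 7 libraries), and its part in these values was not tested.

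Cyp24a1 (ENSMUSG00000038567, chr2:170482708-170497145, minus strand), the 24-hydroxylase that clears active vitamin D, spread further than any other member, from 21.4 CPM in C replicate 2 to 237 CPM in C replicate 9, a ratio of 11.1. It stood at 130.3 CPM in C replicate 8, 64.2 and 186 CPM in DM-22 and 183 and 104 CPM in DM+SGLT2i. Both ends of the range were controls, and the 4 diabetic libraries lay inside it. As log2 fold changes, Cyp24a1 gave 0.32 in DM-22 against C and 0.65 in DM+SGLT2i against C, and without C replicate 2 both turned, to -0.68 and -0.35. The 95% interval in DM-22 against C ran from -2.09 to 2.73, too wide to give a direction. The proximal tubule sum went with Cyp24a1 (r = 0.84) and the injured-tubule sum went against it (r = -0.74); neither part was tested. Cyp24a1 shares 718 bases with Pfdn4 on the other strand, which reached at most 9.29 CPM.

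Set side by side, the ratio of Cyp24a1 to Cyp27b1 in CPM was 1.501 in C replicate 2, 33.1 in C replicate 8 and 47.5 in C replicate 9. It was 14.2 and 21.5 in DM-22 and 13.2 and 6.61 in DM+SGLT2i. All 4 diabetic libraries lay below C replicates 8 and 9 and above C replicate 2, and the DM+SGLT2i values lay below those of DM-22. The ratio was formed after the levels were seen and was given no test.

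**Figure D3:**
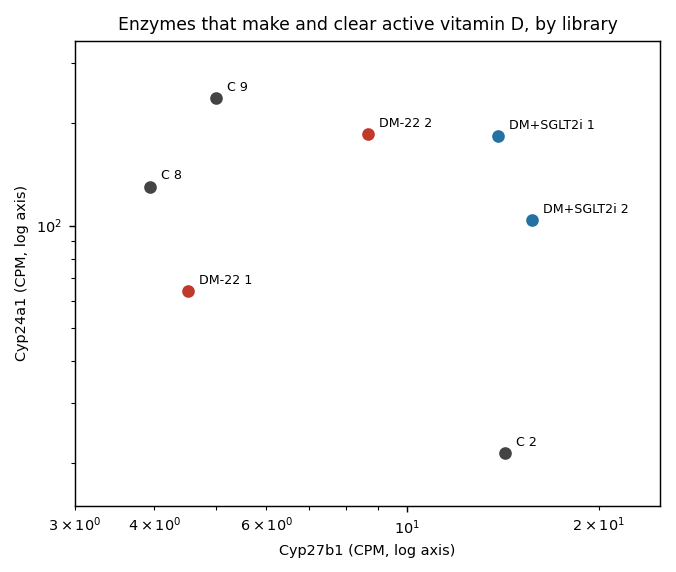
Cyp24a1 against Cyp27b1 in CPM, both on log axes, 1 point per library labelled by group and replicate. C replicate 2 lies alone at the lower right, with 14.2 CPM of Cyp27b1 and 21.4 CPM of Cyp24a1, and the DM+SGLT2i libraries lie at the upper right.

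The 4 genes of calcium passage through the distal tubule cell kept close step with each other over the libraries, with the lowest and the highest level of each in C or DM-22 libraries. Trpv5 (ENSMUSG00000036899, chr6:41652173-41680769, minus strand), the apical channel, stood at 53.1, 18.7 and 13.7 CPM in C, 15.6 and 46.3 CPM in DM-22 and 38.4 and 50.1 CPM in DM+SGLT2i. C replicate 2, DM-22 replicate 2 and both DM+SGLT2i libraries were high, and C replicates 8 and 9 and DM-22 replicate 1 were low, with no value between 18.7 and 38.4 CPM. Its log2 fold change was 0.86 in DM+SGLT2i against C (95% interval -0.70 to 2.43), and without C replicate 2 1.43 (limma, unadjusted p = 0.0282, adjusted p = 0.225). For DM-22 against C it was 0.17 with all controls and 0.74 without C replicate 2 (95% interval -0.48 to 1.95).

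Calb1 (ENSMUSG00000028222, chr4:15881264-15908064, plus strand), which encodes calbindin-D28k, the calcium buffer of distal tubule cells, split in the same way. It stood at 1146 CPM in C replicate 2, 317 and 239.7 CPM in C replicates 8 and 9, 301 and 736 CPM in DM-22 and 788 and 957 CPM in DM+SGLT2i. The drug-treated libraries lay above both DM-22 libraries and below C replicate 2. The log2 fold change in DM+SGLT2i was 0.97 against C (95% interval -0.72 to 2.66) and 0.88 against DM-22 (-0.97 to 2.73). With C replicate 2 left out the value against C was 1.65 (limma, unadjusted p = 0.00876, adjusted p = 0.159). In DM-22 against C it was 0.085, and -0.0042 when scaled to library totals alone, so that no direction can be given; without C replicate 2 it was 0.77 (95% interval -0.28 to 1.82).

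S100g (ENSMUSG00000040808, chrX:162961992-162964599, minus strand), which encodes the smaller calbindin-D9k and whose promoter window held 3 hexamers, stood at 614, 274 and 227 CPM in C, 229 and 806 CPM in DM-22 and 351 and 517 CPM in DM+SGLT2i. Its highest level was in DM-22 replicate 2, not in C replicate 2. Its log2 fold change was 0.35 in DM-22 against C (95% interval -1.15 to 1.85) and 0.34 in DM+SGLT2i against C (-1.16 to 1.84), and 0.78 and 0.77 without C replicate 2. Between the diabetic groups it was -0.012, and 0.095 when scaled to library totals alone. S100g lies wholly within Ctps2, which is on the other strand and reached at most 45.3 CPM; whether the counting used strand is not given in the sources used here.

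Slc8a1 (ENSMUSG00000054640, chr17:81373105-81738377, minus strand), the sodium-calcium exchanger NCX1 of the blood side, stood at 113, 45.6 and 29.4 CPM in C, 25.1 and 104 CPM in DM-22 and 104 and 104 CPM in DM+SGLT2i. DM-22 replicate 1 had the lowest Slc8a1 of all 7 libraries, and the other diabetic libraries lay close together near the level of C replicate 2. DM+SGLT2i had a log2 fold change of 0.95 against C (95% interval -0.76 to 2.67) and 1.02 against DM-22 (-0.86 to 2.90). Against C without replicate 2 it was 1.49 (limma, unadjusted p = 0.0558). In DM-22 it was -0.064 with all controls and 0.48 without C replicate 2, so that its sign changes with that library.

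Across the 7 libraries the ratio of Calb1 to Trpv5 in CPM stayed within 15.9 to 21.6, a 1.36-fold range, while each gene alone varied 4.78-fold and 3.89-fold. The ratio of Slc8a1 to Trpv5 stayed within 1.61 to 2.72, and that of Calb1 to S100g within 0.913 to 2.24. In log2 values Pearson r was 0.99 for Calb1 and Trpv5, 0.97 for Trpv5 and Slc8a1 and 0.95 for Calb1 and Slc8a1. For S100g it was 0.91 with Trpv5 and 0.85 with Calb1. Cyp27b1 followed the same libraries, with r of 0.94 to Calb1 and 0.91 to Trpv5. Such values were not particular to these genes. Of 9582 other genes with a mean of at least 10 CPM, 78 had r over 0.9 with Calb1 and 63 with Trpv5. With Slc8a1 49 did, and with S100g 114 did. The points share their libraries, scaling and tissue make-up, and the values carry no test.

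Relative to Slc12a3 the levels of Calb1 also differed between libraries. The ratio of Calb1 to Slc12a3 in CPM was 1.58 in C replicate 2 and 0.308 and 0.284 in the other controls. In the diabetic libraries this ratio was 0.883 and 0.483 in DM-22 and 0.692 and 0.968 in DM+SGLT2i. All 4 diabetic libraries and C replicate 2 therefore held more Calb1 per Slc12a3 than C replicates 8 and 9. This is a description with no test. Slc12a3 is among 8 distal convoluted tubule markers, and not all of them gave this order. Relative to Ppp1r1a or Kcnj16, Calb1 was lower in DM-22 replicate 1 than in C replicates 8 and 9. Relative to Pvalb it was lower in DM-22 replicate 2. Ppp1r1a stood at 473 CPM in DM-22 replicate 1, against 134 and 141 CPM in C replicates 8 and 9. The remaining markers gave the order seen with Slc12a3. The injured-tubule sum, made up mostly of Spp1 and Clu, had r of 0.86 with Calb1, 0.79 with Trpv5, 0.60 with S100g and 0.68 with Slc8a1. The distal convoluted tubule sum had r of 0.63, 0.73, 0.79 and 0.79 with the same genes in turn. The part of either in these levels was not tested.

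**Figure D4:**
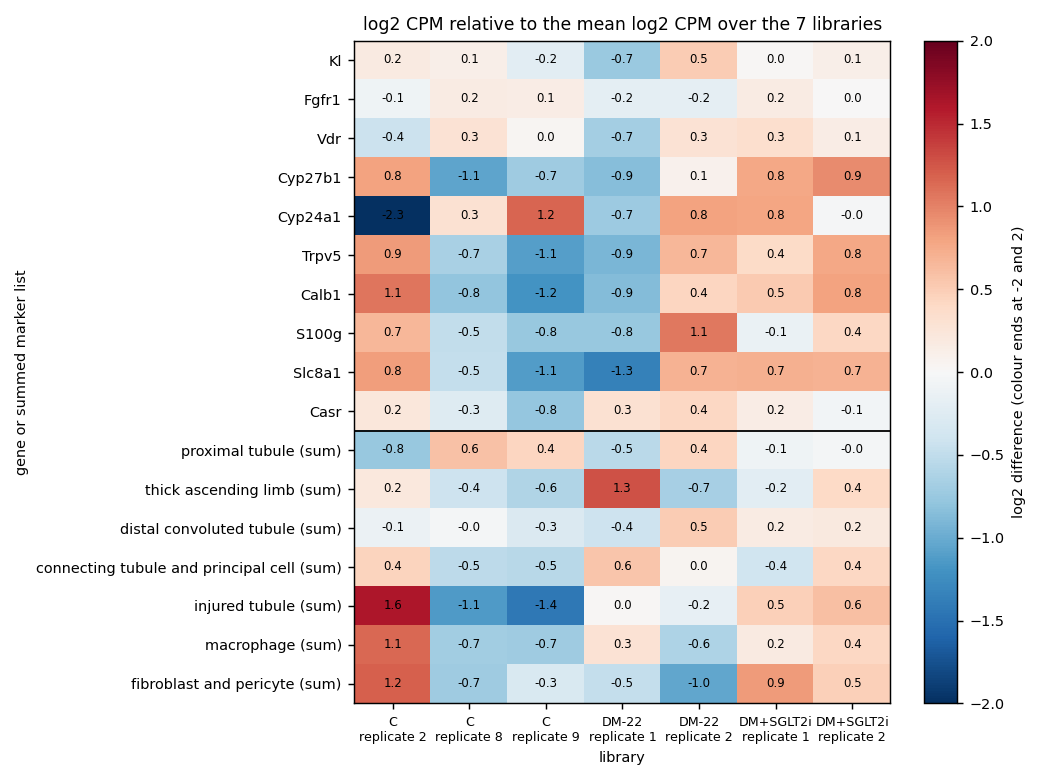
log2 CPM of the 10 genes and, under the line, of the summed markers of 7 cell types or states, each relative to its own mean over the 7 libraries (columns by group and replicate, red above and blue below the mean). Trpv5, Calb1, S100g and Slc8a1 are below their means in C replicates 8 and 9 and DM-22 replicate 1 and above them in C replicate 2 and DM-22 replicate 2.

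Casr (ENSMUSG00000051980, chr16:36493696-36562141, minus strand), the calcium-sensing receptor, was higher in both DM-22 libraries than in any other library. Its level was 75.2, 53.4 and 37.2 CPM in C, 78.7 and 85.1 CPM in DM-22 and 71.0 and 61.5 CPM in DM+SGLT2i. The DM+SGLT2i libraries lay above C replicates 8 and 9 and below C replicate 2. Against C the log2 fold change in DM-22 was 0.62 ± 0.28 (SE), with an unadjusted limma p of 0.0658 and an adjusted p of 0.804. Without C replicate 2 it was 0.87 (95% interval 0.39 to 1.35, limma, unadjusted p = 0.00452, adjusted p = 0.0943). For the 4 diabetic libraries together it was 0.47 with all controls and 0.72 without C replicate 2, where the adjusted limma p was 0.0891. For DM+SGLT2i alone the values were 0.31 and 0.56. For Casr in DM+SGLT2i against DM-22 the log2 fold change was -0.31 (95% interval -1.04 to 0.43). The thick ascending limb sum was 13785 CPM in DM-22 replicate 1 but 3592 CPM, the lowest of all, in DM-22 replicate 2, while Casr was high in both; the part of tissue make-up in the level of Casr was not tested.

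**Figure D5:**
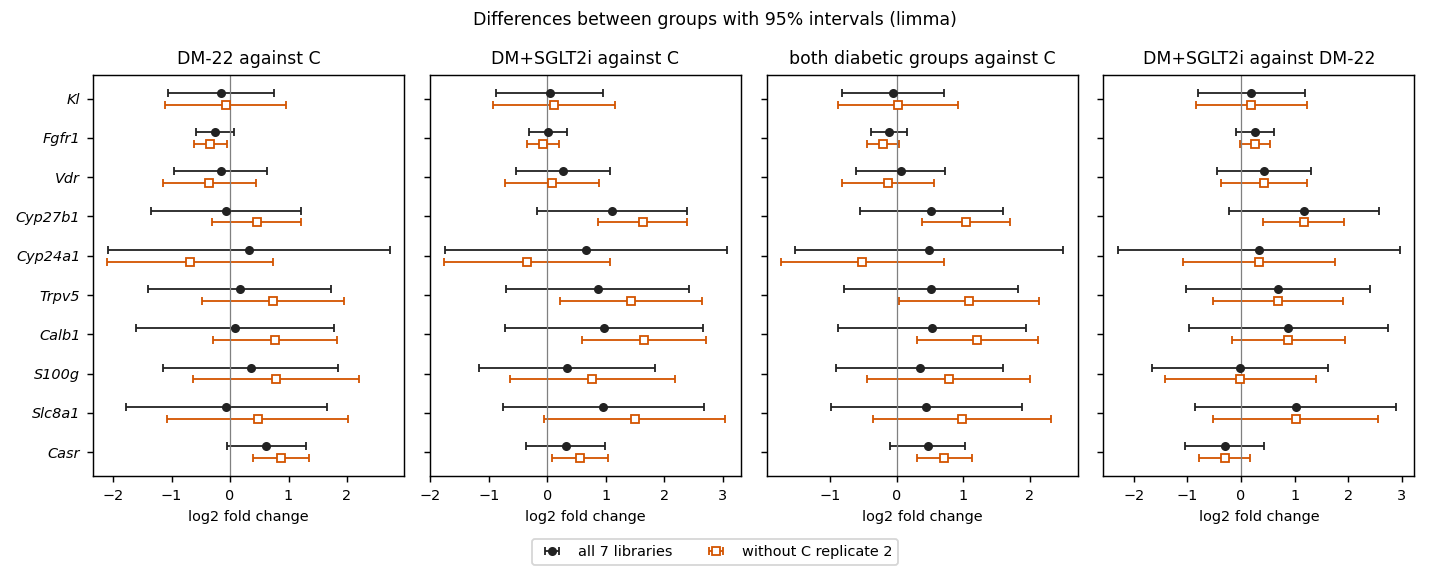
log2 fold change (horizontal axes) of the 10 genes in 4 comparisons, with limma's 95% intervals, from all 7 libraries (filled circles) and without C replicate 2 (open squares). With all libraries every interval spans 0. Without C replicate 2, Casr and Fgfr1 in DM-22, and Cyp27b1, Calb1, Trpv5 and Casr in DM+SGLT2i and in the pooled comparison, all against C, have intervals on 1 side of 0, before adjustment, as has Cyp27b1 in DM+SGLT2i against DM-22.

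Across the list, 0 of the 10 members passed an adjusted p of 0.05 in DM-22 against C, where 0% of the 13976 genes did (4.47% had an unadjusted limma p under 0.05, and 0 members). The 2 members whose groups did not overlap, Casr and Fgfr1, compare with 20.1% of all genes. The median log2 fold change of the members was 0.011, against 0.0045 for all genes tested, with 5 higher and 5 lower. Against C, DM+SGLT2i gave 0 members and 0% of genes past the threshold (1.08% at an unadjusted limma p under 0.05, and 0 members), and 0 members had groups that did not overlap, against 12.3% of genes. All 10 members were on the higher side there, with a median log2 fold change of 0.50, against -0.013 for all genes. Without C replicate 2, 8 of 10 were, all but Cyp24a1 and Fgfr1, with a median of 0.67. Of the 10, Fgfr1 (0.0097) and Kl (0.038) lay near 0, and Kl, Cyp24a1 and Fgfr1 changed sign on leaving out a library. The members share their libraries and several rise and fall together, so that they do not count as independent. Between the diabetic groups 0 members and 0% of genes passed (3.91% unadjusted, and 0 members). Cyp27b1, Calb1, Slc8a1 and Fgfr1 were higher and Casr was lower without overlap, 5 of 10, against 41.5% of genes. In the 4 diabetic libraries against C, 0 members and 0% of genes passed (2.04% unadjusted, and 0 members), and 0 members did not overlap, against 2.69% of genes. The smallest adjusted limma p of a member was 0.804, 0.9997, 0.881 and 0.988 in these 4 comparisons in turn. limma with voom weights on the recovered reads also gave 0 members and 0 genes at an adjusted p under 0.05, and 517, 148, 533 and 259 genes at an unadjusted p under 0.05. The exact permutation test (two-sided) gave no member a p under 0.171, and the design allows no less than 0.2 in each diabetic group against C, 0.333 between them and 0.0571 in the pooled comparison.

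Without C replicate 2, adjusted limma p-values still called 0 members in each comparison, against 0.0144% of the 13841 genes tested in DM-22 against C, 0.123% in DM+SGLT2i against C, 0% in DM+SGLT2i against DM-22 and 0.202% in the pooled comparison. At an unadjusted p under 0.05, 2 members stood in DM-22 against C (Casr and Fgfr1), against 25.4% of genes. DM+SGLT2i against C held 4 (Cyp27b1, Calb1, Trpv5 and Casr), against 17.9% of genes. DM+SGLT2i against DM-22 held 1 (Cyp27b1), against 10.7%, and the pooled comparison held 4 (Casr, Cyp27b1, Calb1 and Trpv5), against 25.0%. Members without overlap numbered 2, 6, 5 and 1 in the same order, against 59.6%, 61.6%, 41.5% and 35.9% of genes. The shares of members at an unadjusted p were thus near those of all genes in DM-22 and in the comparison of both diabetic groups, and 4 of 10 stood beside 17.9% and 25.0% in the other comparisons. These values followed from leaving out a library that was singled out by its levels in the same data. C replicate 2 had the highest Cyp27b1, Calb1, Trpv5 and Casr of the controls, so that leaving it out lowered each control mean. The 4 of 10 is therefore a description and is no support for a difference.

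The spread over the 7 libraries was above that of most tested genes for every member but Fgfr1. The SD of log2(CPM + 0.5) was at percentile 98.6 of the tested genes for Cyp24a1, 97.0 for Slc8a1, 96.7 for Calb1, 95.5 for Trpv5, 94.98 for Cyp27b1 and 93.1 for S100g. Kl, Vdr and Casr lay between percentile 72.2 and 74.1, and Fgfr1 was at 20.1. As these SDs take in differences between groups, they describe all 7 libraries and not only replicates.

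The gene whose pattern was most like that of each member was sought among 9582 other genes with a mean of at least 10 CPM. Calb1 was matched most closely by Clu (r = 0.994), the secreted chaperone clusterin, which is itself in the injured-tubule list. S100g was matched by Atp6v1b1 (r = 0.994), a proton pump subunit of intercalated cells, Trpv5 by Serpinb1a (0.986) and Slc8a1 by Srxn1 (0.992), the antioxidant enzyme sulfiredoxin. Kl was matched by Slc25a1 (0.981), the mitochondrial citrate carrier, and Vdr by Lrpprc (0.993). Cyp27b1 was matched by Gsta2 (0.968), Cyp24a1 by Wdr3 (0.971), Casr by Sf3a2 (0.984) and Fgfr1 by Rev3l (0.994). Each r is the highest of 9582 over 7 libraries and is a description only.

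Of 88 further genes of the same pathways, 86 were listed and 80 were tested. Adjusted limma p-values called 0 of the 80 in each comparison, with or without C replicate 2. In DM-22 against C, 3 genes (3.75%) had an unadjusted limma p under 0.05: Rxrb, a retinoid X receptor that pairs with Vdr (0.32, unadjusted p = 0.0300), and Cldn10, a claudin of the thick ascending limb (0.88, unadjusted p = 0.0469), on the higher side, and Spry1, a feedback inhibitor of FGF receptors (-0.77, unadjusted p = 0.0213), on the lower side, all as log2 fold changes. Between the diabetic groups, 3 genes (3.75%) did, all lower: Rxrb (-0.46, unadjusted p = 0.0100), Cldn10 (-0.99, unadjusted p = 0.0430) and Slc9a3r2, a scaffold of phosphate transporters (-0.37, unadjusted p = 0.0411). DM+SGLT2i against C held 0, and the pooled comparison held 1 (1.25%), Spry1 (-0.62, unadjusted p = 0.0236). Over all genes tested the shares were 4.47%, 3.91%, 1.08% and 2.04% in the same order, each above that of the list genes. With C replicate 2 left out, the shares of list genes were 23.75% in DM-22 against C, 8.75% in DM+SGLT2i against DM-22, 13.75% in DM+SGLT2i against C and 21.25% in the pooled comparison, and those of all genes were 25.4%, 10.7%, 17.9% and 25.0%, again each above.

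By list, the 7 targets and feedback genes of FGF signalling (Egr1, Dusp6, Spry1, Spry2, Spry4, Etv4 and Etv5) had 0 higher and 7 lower log2 fold changes in DM-22 against C, with a median of -0.51, of which 1 (Spry1) had an unadjusted limma p under 0.05. Egr1, named after its values were seen, stood at 1166 CPM in C replicate 9, 33.5 and 33.7 CPM in the other controls, 80.6 and 3.10 CPM in DM-22 and 13.3 and 11.9 CPM in DM+SGLT2i, so that 1 control was far above all others. The 6 genes of apical calcium entry and its regulators (Trpv6, Umod, Klk1, S100a10, Anxa2 and Wnk4) were all on the higher side in DM-22 (median log2 fold change 0.43) and in DM+SGLT2i (0.26) against C, and 0 had an unadjusted p under 0.05. The medians of all genes tested were 0.0045 and -0.013. Umod, also a thick ascending limb marker, stood at 6933 CPM in DM-22 replicate 1 but at 2337 CPM in replicate 2, below every control (2534 to 3417 CPM). The part of DM-22 replicate 1 in this count was not tested. Trpv6, the close relative of Trpv5, was scarce, at 6.73, 1.26 and 0.855 CPM in C, 2.54 and 1.94 CPM in DM-22 and 3.01 and 4.97 CPM in DM+SGLT2i. Of the 13 genes of vitamin D supply, uptake and receptor partners, 5 were higher and 8 lower in DM-22 (median -0.067). Among them Gc, the vitamin D binding protein, named after its values were seen, stood at 556 CPM in C replicate 2 and 26.1 and 24.8 CPM in the other controls, at 98.6 and 35.3 CPM in DM-22 and at 166 and 129.7 CPM in DM+SGLT2i. C replicate 2 thus stood apart from the other controls in Gc as it did in Cyp24a1, Cyp27b1 and Calb1. In Cyp27b1, unlike Gc, it lay between the DM+SGLT2i libraries (14.2 CPM, against 13.9 and 15.7 CPM).

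The remaining lists gave the following counts in DM-22 against C. Among FGF receptors, ligand and co-receptors, 1 of 4 tested genes was higher, and among parathyroid hormone signalling genes 3 of 3 (median log2 fold change 0.042). Of basolateral calcium extrusion genes 2 of 4 were higher, of calcium-sensing receptor signalling genes 3 of 4, and of intracellular calcium store genes 8 of 11 (median 0.14). The thick ascending limb genes of calcium and magnesium passage were higher in 7 of 8 (median 0.43, with Cldn10 at an unadjusted limma p under 0.05) and the distal magnesium genes in 7 of 8 (0.21). Phosphate transport genes were higher in 3 of 9 (median -0.20) and the glycosidase relatives of Klotho in 1 of 3 (-0.23). Several genes of the thick ascending limb list are also in the marker list that was high in DM-22 replicate 1, and the part of that library in these counts was not tested.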

How the data were processed

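Poly(A) RNA of 7 mouse kidney samples was sequenced with a strand-marking kit. Per the submitters' processing notes, the tools were bcl2fastq, FastQC, Trim Galore, STAR and edgeR, on build mm10; versions, roles and the use of strand in counting are not given in the sources used here. The authors deposited log2 values of TMM-normalized CPM for 17537 genes, with a constant added (floor -4.66). Undoing the logarithm and subtracting 0.0395, the CPM at the floor, gave CPM, which corresponded to whole reads (within 0.05) for 100% of values. CPM had been assumed when the tests were set, and the same test on log2(CPM + 0.5) was kept.

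Group labels and replicate numbers came from the sample labels, and 1 read was worth 0.0180 to 0.0231 CPM. The 13976 genes that reached 1 CPM in 2 or more libraries were fitted with limma 3.58.1 (R 4.3.3, eBayes with trend), the 3 groups together, two-sided, with Benjamini-Hochberg adjustment and a threshold of 0.05. Fold changes on this scale understate changes of low genes. Intervals cover 95% and are not adjusted. No pair of replicates agreed within sampling noise (chi-square per gene 39.3 to 417). The code was tested on simulated data. The 10 genes and the lists were chosen with earlier results of these data known, and named by a set rule: all members, list genes at an unadjusted p under 0.05, the most alike gene of each member, and Cdkn1a. Levels of Egr1, Gc and Trpv6 were given beyond this rule. Lengths and positions are from GENCODE M21 (GRCm38), matched by gene identifier, and promoter windows from RefSeq. Alternatives were pseudocounts of 0.1 and 2, no filter and a filter of 5 CPM, library-total and median-of-ratios scaling, voom, only the groups compared, leaving out each library and a replicate block.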

Additional observations from a re-analysis of the deposited data

Results flagged for a closer look

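In the 4 diabetic libraries the level of Slc8a1 was 25.1 CPM in DM-22 replicate 1 and 104 CPM in each of the others, so that the gap from the lowest to the next was 0.988 of the whole range. The limit it passed is one that chance passes in about 1 in 20 groups, and 10 genes were looked at in this way. The same library had the lowest level among the 4 of every member except Casr, and the highest sum of thick ascending limb markers; the part of tissue make-up in this was not tested.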

How the results depend on the processing

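For the 40 log2 fold changes of members, 320 values from alternatives other than leaving out a library kept their direction in all but 2 cases, both under scaling to library totals, which shifted the median of all genes by 0.102 in DM+SGLT2i against DM-22: Calb1 in DM-22 against C (-0.0042) and S100g in DM+SGLT2i against DM-22 (0.095). No alternative brought a member past an adjusted p of 0.05. Leaving out 1 library turned 34 of 280 values, in 19 of the 40 fold changes. In DM-22 against C the range was -0.78 to 0.48 for Kl, -0.64 to 0.33 for Vdr, -0.50 to 0.46 for Cyp27b1, -0.68 to 1.09 for Cyp24a1, -0.56 to 0.77 for Calb1, -0.56 to 1.26 for S100g, -0.60 to 0.94 for Trpv5 and -1.08 to 0.95 for Slc8a1, whereas Casr (0.37 to 0.87) and Fgfr1 (-0.34 to -0.21) kept their sign. For DM+SGLT2i against C it was -0.082 to 0.11 for Kl, -0.35 to 1.37 for Cyp24a1 and -0.071 to 0.086 for Fgfr1. For DM+SGLT2i against DM-22 it was -0.44 to 0.82 for Kl, -0.053 to 0.92 for Vdr, -0.43 to 1.10 for Cyp24a1, -0.92 to 0.89 for S100g and -0.076 to 1.46 for Trpv5. In the pooled comparison it was -0.24 to 0.18 for Kl, -0.14 to 0.29 for Vdr and -0.52 to 1.21 for Cyp24a1. The cause was not tested. With 1 library of a group left, that library is assumed to vary like the other groups.

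Genes called at an adjusted p ranged over 0 to 2, 0 to 17, 0 to 0 and 0 to 28 in the 4 comparisons (DM-22 against C, DM+SGLT2i against C, DM+SGLT2i against DM-22, pooled), the highest counts being without C replicate 2. Genes at an unadjusted p under 0.05 ranged over 166 to 3521, 26 to 2478, 55 to 1487 and 52 to 3457. Members at an unadjusted p under 0.05 ranged over 0 to 2, 0 to 4, 0 to 3 and 0 to 4. In DM+SGLT2i against DM-22, DM-22 replicate 2 gave the highest count when left out (3), and 1 member was reached with only the groups compared and 1 with the replicate block. The replicate numbers that both diabetic groups share did not pair the libraries (r = -0.041 of their deviations, 2 pairs), and the other comparisons share fewer than 2 numbers. The fewest reads of a member in any library were 187, for Cyp27b1; what depth and group size each add to the errors was not tested.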
